A study of Mus musculus with 4 samples.

Results

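The probes described here report noncoding transcripts that the array design names by a catalogue number alone, such as u202669, with no cDNA clone in the name. They were selected on measured values: of 8798 such probes, 3212 were kept because both arrays of the control group, of the phorone group or of both carried the scanner software's flag for a signal well above background. The array held 61307 probes outside its controls, of which 11881 are noncoding probes with a clone in their name (4503 kept by the same rule). The cells were a chemically transformed line of C3H10T1/2 mouse embryo fibroblasts. All of them had received 2.5 µg/ml of 3-methylcholanthrene, a polycyclic carcinogen (3MC in the labels), for 2 days and, after 4 days in plain medium, the phorbol ester TPA at 100 ng/ml over 2 weeks, and had then grown for 4 weeks without either. The control group is 2 arrays of these transformed cells, and the phorone group is 2 arrays of the same cells exposed to 2 mM phorone, an unsaturated ketone known for depleting glutathione. Untransformed cells are not compared here. The labels do not say whether a group's arrays stem from separate cultures, and each p-value measures the spread between these arrays, which may be technical.

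The label of these probes held only in part. Their names carry no clone, but the design's accession column lists a cDNA clone accession for 8780 of the 8798, and 8781 are named "mRNAlike", that is, long transcripts resembling messenger RNA; the other 17 are named for a known noncoding RNA. A single probe of 60 bases stands for each name, and 7076 of the probes are listed for 1 catalogue transcript. The others are listed for several, and the design lists no more than 10 accessions for a probe.

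Long noncoding RNAs are transcribed, capped and often polyadenylated like messenger RNA, and many are unstable. Some begin upstream of a coding gene and run away from it, on the opposite strand of the same promoter region, and such upstream antisense RNAs are usually removed in the nucleus by the RNA exosome. Others are read from repeats: the major satellite fills the heterochromatin around mouse centromeres, B1 and B2 are short interspersed elements copied by RNA polymerase III, and IAP elements are endogenous retrovirus-like repeats. The labelling began from an oligo-dT primer, per the labels, so transcripts with an A-rich tail or stretch were favoured.

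Because the names say nothing of what was measured, the probe sequences are the identity of these features. Of the members above background on all 4 arrays, the first pair below had the largest falls that were called and the other pair were among the 12 largest called rises, and none of the 4 shares an 18-base stretch with another member. They are written 5′ to 3′ in lower case.
u202669: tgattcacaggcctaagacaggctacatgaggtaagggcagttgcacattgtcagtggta
u199094: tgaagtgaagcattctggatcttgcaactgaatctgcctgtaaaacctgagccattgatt
u189928: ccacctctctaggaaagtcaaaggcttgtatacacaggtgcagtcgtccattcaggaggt
u186837: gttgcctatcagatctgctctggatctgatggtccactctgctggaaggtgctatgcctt

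A second set is shown because its probes share sequence and fell together. The sequences below read as mouse major satellite, a name given here from knowledge of the repeat and not by the files. Capitals mark stretches of at least 18 bases that occur exactly in another probe of the same group.
u201771: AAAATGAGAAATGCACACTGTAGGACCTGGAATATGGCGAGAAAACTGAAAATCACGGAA
u201775: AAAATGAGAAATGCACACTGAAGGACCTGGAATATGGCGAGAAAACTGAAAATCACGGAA
u197898: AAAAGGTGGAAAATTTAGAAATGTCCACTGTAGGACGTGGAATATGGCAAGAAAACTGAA
u192891: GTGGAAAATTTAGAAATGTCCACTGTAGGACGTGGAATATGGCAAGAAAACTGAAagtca

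A further set is shown because its probes rose together. These probes carry the head of a B2 element in the reverse orientation, again named from knowledge of the repeat, followed by sequence of their own; capitals mark the shared stretches as above.
u189215: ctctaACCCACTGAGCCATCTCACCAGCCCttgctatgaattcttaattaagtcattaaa
u195953: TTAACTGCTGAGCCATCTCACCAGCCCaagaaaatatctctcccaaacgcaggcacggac
u197433: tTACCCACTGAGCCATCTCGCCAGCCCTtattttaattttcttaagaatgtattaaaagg

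The last set are promoter regions in which a member lies on the strand opposite to the gene. Each is the 250 bases before a RefSeq start site (build GRCm38.p6, gene strand), with the stretch matched by the antisense probe in capitals: chr10:94198785-94199034 before Ndufa12 (plus strand), chr2:130284452-130284701 before Idh3b (minus strand) and chr6:52713479-52713728 before Tax1bp1 (plus strand).
Ndufa12: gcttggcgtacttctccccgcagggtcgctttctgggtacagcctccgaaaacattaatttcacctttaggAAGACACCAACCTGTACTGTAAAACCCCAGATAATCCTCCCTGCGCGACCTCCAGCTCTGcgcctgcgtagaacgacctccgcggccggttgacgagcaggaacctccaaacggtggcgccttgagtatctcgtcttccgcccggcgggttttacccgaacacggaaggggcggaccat
Idh3b: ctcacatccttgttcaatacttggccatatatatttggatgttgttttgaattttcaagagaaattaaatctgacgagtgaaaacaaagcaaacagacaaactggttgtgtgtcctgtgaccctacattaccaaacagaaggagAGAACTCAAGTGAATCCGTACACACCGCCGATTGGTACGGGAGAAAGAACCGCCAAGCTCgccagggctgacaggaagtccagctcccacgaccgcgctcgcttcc
Tax1bp1: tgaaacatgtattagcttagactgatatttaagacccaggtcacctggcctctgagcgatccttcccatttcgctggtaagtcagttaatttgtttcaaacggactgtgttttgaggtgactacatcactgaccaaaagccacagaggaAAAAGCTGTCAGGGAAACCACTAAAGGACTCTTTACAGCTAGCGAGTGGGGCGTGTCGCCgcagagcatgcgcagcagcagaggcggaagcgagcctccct

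The share of spots well above background ran from 51.1% to 52.7%, and no array stood apart by that measure. All signals are on a log2 scale with the 75th percentile of the array subtracted, so that 0 is that percentile and 1 unit is a doubling. Probes differ in how well they bind, so a higher signal on one probe than on another does not give a higher amount of RNA. Across the members tested, which are not independent replicates, r was 0.982 for the pair of control arrays, 0.988 for the pair of phorone arrays and 0.949 to 0.956 for pairs that cross the groups. The median absolute difference between replicate arrays was 0.21 for control and 0.19 for phorone. Fibroblast markers were present: 10 of 11 were on all 4 arrays. With phorone 7 of the 11 were called lower (median -1.51), beside 17% of all probes tested, and Dcn, which encodes decorin, fell by 4.52. Of markers of other cells, 2 of 5 epithelial and 3 of 4 blood markers were tested, and Cd68, a macrophage marker, was called higher (1.26, SE 0.22). Of the defining markers, Epcam, Krt18 and Cdh1 (epithelial), Ptprc (blood) and all 3 endothelial markers did not pass the filter on dim probes. The part of other cell types or of the fibroblast change in the results below was not tested. Control and phorone arrays occupied different rows of a slide, so that row and group cannot be told apart.

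Fewer members passed the filter than gene probes did, 36.5% against 59.7%, and the clone-named noncoding probes stood at 37.9%. The share kept went with probe composition. It was 17.2% of members with at most 35% G and C, 30.7% from there to 45%, 41.7% up to 50% and 49.3% above 50%. It also went with the number of catalogue transcripts listed for a probe: 29.8% of the members listed for 1 transcript were kept, 57.3% of those listed for 2 to 4 and 86.2% of those listed for 5 or more. Of the 3212 kept, 2762 were well above background on all 4 arrays, 104 on both control arrays and neither phorone array, and 88 the reverse. A further 142 were above background on both control arrays and 1 phorone array, and 116 on both phorone arrays and 1 control array. Spots flagged as outliers removed 7 members from the fit, which left 3205.

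**Figure D1:**
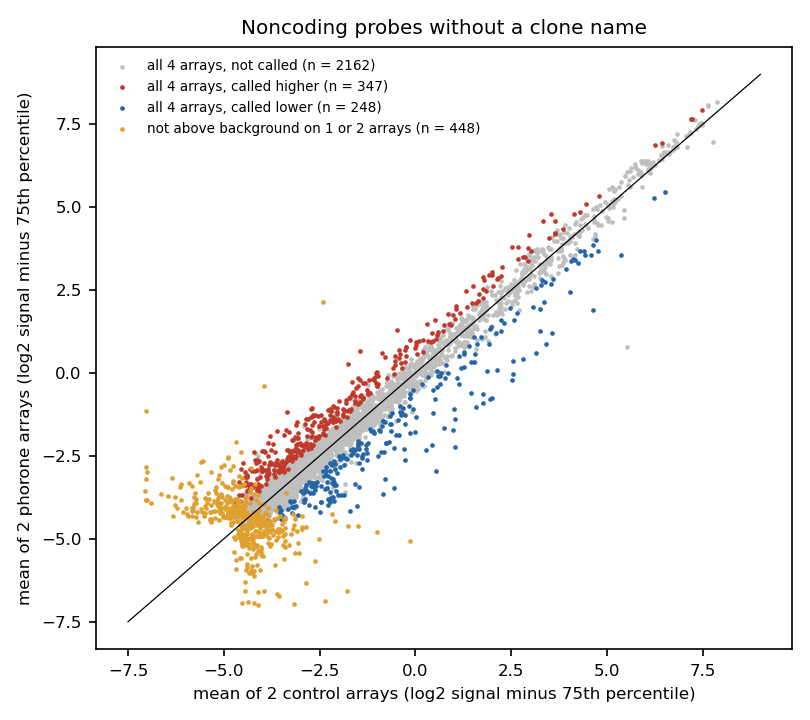
Mean log2 signal of each tested member on the 2 control arrays (x axis) and on the 2 phorone arrays (y axis), both relative to the array's 75th percentile, with the line of equality. Of the members on all 4 arrays, 347 called higher lie above the line and 248 called lower below it, and the members not above background on 1 or 2 arrays gather at the dim end.

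The comparison asked which of these transcripts changed when the transformed cells were exposed to phorone. By limma with Benjamini-Hochberg adjustment over all 31905 probes tested, 20.9% of all probes were called higher and 17% lower at an adjusted p below 0.05. Among members the counts were 451 higher (14.1%) and 334 lower (10.4%) of 3205, with a median log2 change of 0.05 against 0.09 over all probes. Over probes on all 4 arrays, where the filter could not force a difference, 20.7% were called higher and 15.2% lower, and members stood at 347 (12.6%) and 248 (9.0%) of 2757. Both shares lay below the background of the array. These counts are descriptions, since the members were selected on the same arrays. The split moved with the background correction, to 631 higher and 284 lower with normexp, and with scaling to the spike-in controls, to 384 higher and 91 lower. In the spike-in fit limma estimated an infinite prior, so that all probes shared an SE of 0.458 whatever their own spread, and its counts are to be read with that. Spike-in scaling moved the median of all probes from 0.09 to 0.53, and every direction below is relative to the 75th percentile unless that scaling is named. The mean log2 spike-in signal was 12.21 and 12.95 on control replicates 1 and 2, and 11.88 and 11.72 on the phorone arrays. The control arrays differed much less in their 75th percentile signal, 701 and 747 before the log. The spike-in shift between groups therefore leans on control replicate 2. Leaving out phorone replicate 2 gave 207 and 227.

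The clone-named noncoding probes gave a similar picture, with 12% higher and 9.50% lower among those on all 4 arrays, against 23.3% and 17.0% of gene probes. Within members on all 4 arrays the share called did not follow signal in a simple way. It was 6.12% below a mean level of -4, 22.0% from -4 to -2, 23.6% from -2 to 0, 24.5% from 0 to 2 and 19.6% above 2. Among all tested members, those listed for 1 catalogue transcript were called in 25.8% of cases, those for 2 to 4 in 26.0% and those for 5 or more in 13.8%. Of the 2757 members tested on all 4 arrays, 108 (3.92%) were called and at least 2-fold higher and 102 (3.70%) called and at least 2-fold lower, against 7.14% and 7.79% of all probes on all 4 arrays.

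The steepest called falls on all 4 arrays were those of u202669 and u199094, whose sequences stand above. The probe of u202669 read 0.60 and 0.45 in control and -2.87 and -3.02 with phorone. It fell by 3.47 (SE 0.14, limma adjusted p = 0.000561). A clone-named probe for the same transcript fell by 3.22 (SE 0.21), with 1 phorone array not above background. For u199094 the values were 0.92 and 1.12 in control and -2.52 and -1.92 with phorone, a fall of 3.24 (SE 0.24, limma adjusted p = 0.00161). Its clone-named counterpart fell by 3.02 (SE 0.14). In both cases the groups lay far apart compared with their replicates, and 2 probes of different sequence gave the same direction.

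The other falls ran from 2.60 to 2.92. The probe of u196163 went from -0.51 and -0.61 to -3.40 and -3.56 (-2.92, SE 0.14). That of u202580 went from -0.86 and -0.81 to -3.66 and -3.64 (-2.81, SE 0.13). The probe of u178117 stood high in control, at 4.62 and 4.63, and read 1.84 and 1.96 with phorone (-2.73, SE 0.13, limma adjusted p = 0.000764). For u192876 the change was -2.73 (SE 0.16), and a clone-named probe of the same transcript fell by 2.68 (SE 0.14). The changes of u195422 and u202655 were -2.71 (SE 0.20) and -2.60 (SE 0.18). The remaining 4 of the 12 largest falls, u201780, u192891, u180980 and u192888, carry major satellite sequence and are described with that repeat. In all 12 both phorone arrays lay below both control arrays, which the choice of the largest called falls nearly fixes; so did 29.9% of all probes on all 4 arrays.

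**Figure D2:**
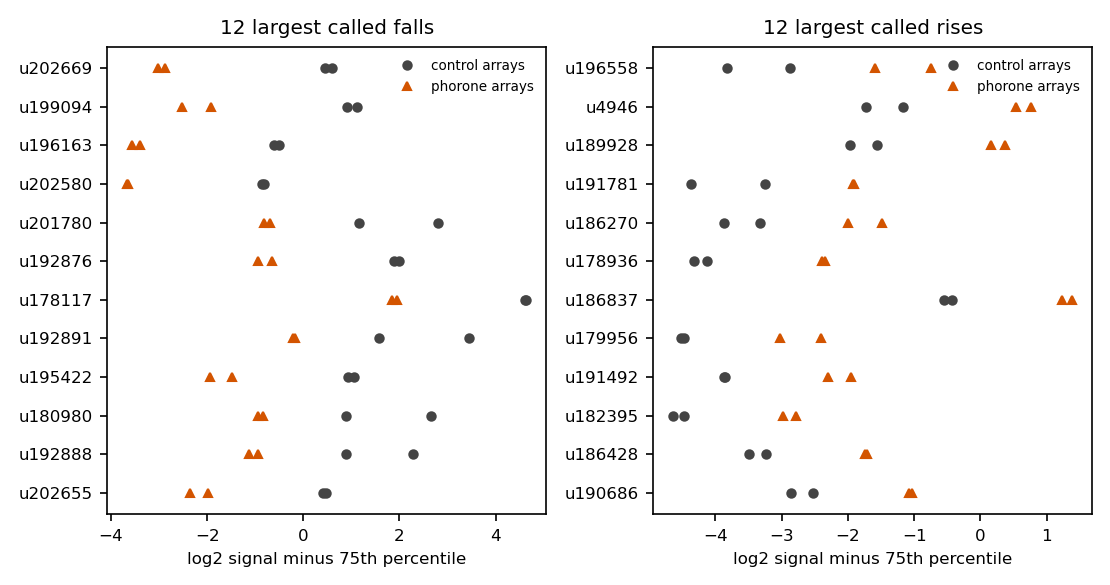
Log2 signal relative to the 75th percentile on each of the 4 arrays (x axis) for the 12 members with the largest called falls (left) and the 12 with the largest called rises (right), among members above background on all arrays. The control points of the 4 satellite probes u201780, u192891, u180980 and u192888 lie far apart, while those of u202669 and u202580 nearly coincide.

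The rises on all 4 arrays were smaller than the falls. The largest fitted rise was that of u196558, from -2.88 and -3.82 to -0.74 and -1.59 (2.18, SE 0.42, limma adjusted p = 0.0169). Its replicates were wide, and a clone-named probe that shares an accession with it was not called (-0.12, SE 0.14, limma adjusted p = 0.511). The probe of u4946, named for a small nucleolar RNA, a class that works on ribosomal RNA in the nucleolus, went from -1.17 and -1.73 to 0.76 and 0.54, a rise of 2.10 (SE 0.23, limma adjusted p = 0.00393). The probe of u189928 read -1.56 and -1.96 in control and 0.16 and 0.37 with phorone (2.03, SE 0.19, limma adjusted p = 0.00284). That of u186837 went from -0.42 and -0.55 to 1.38 and 1.23 (1.79, SE 0.14). In these last 3 members both phorone arrays lay above both control arrays by more than the arrays of a group differed.

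The remaining 8 of the 12 largest rises lay between 1.64 and 1.89 and began from dim signals in control. The probe of u178936 went from -4.32 and -4.12 to -2.39 and -2.35 (1.85, SE 0.14), and that of u191492 from -3.86 and -3.86 to -2.29 and -1.96 (1.73, SE 0.16). A clone-named probe for u191492 rose by 1.70 (SE 0.18). The probe of u191781 had the widest control values of the 12, -4.37 and -3.24, and rose by 1.89 (SE 0.38, limma adjusted p = 0.0185). The members u186270, u179956, u182395, u186428 and u190686 rose by 1.86, 1.78, 1.67, 1.64 and 1.64. In these 12 rises, chosen the same way, both phorone arrays lay above both control arrays, as in 43.7% of all probes on all 4 arrays.

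The members nearest to the threshold show what a call means at this size of experiment. The probe of u201335 read -2.32 and -1.98 in control and -1.65 and -1.34 with phorone and was just called (0.66, SE 0.19, limma adjusted p = 0.0499). The probe of u182414 read 1.64 and 1.50 in control and 0.41 and 1.05 with phorone and was just not (-0.84, SE 0.24, limma adjusted p = 0.0503).

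One member was far apart between the control arrays. The probe of u183624 read 10.04 on control replicate 1 and 0.99, 0.78 and 0.79 on control replicate 2 and the phorone arrays. Its fitted change of -4.73 had an SE of 2.89 and was not called (limma adjusted p = 0.249). Without control replicate 1 the change is -0.21, and without control replicate 2 it is -9.26 and called. The other 8 probes with which it shares sequence read alike on both control arrays, differing by at most 0.30.

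Members above background in 1 group only have a bound instead of a measured change, since the other group is not well above background. The bound sets the mean of the brighter group against, per array, whichever is higher, what the probe itself read or the dimmest probe flagged as well above background. Of the 104 members above background on the control arrays alone, 24 were at least 2-fold lower with phorone by this bound, and of the 88 on the phorone arrays alone, 30 were at least 2-fold higher. Under spike-in scaling these counts were 12 and 71. No share over all probes stands beside the counts of members in 1 group only. They therefore do not show whether members differ from the array in this.

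In the control arrays alone, u195981 read 0.07 and -0.38, against -5.03 and -5.08 with phorone, and was at least 22.9-fold lower. The probe of u193711 read -1.62 and -1.95 and was at least 7.39-fold lower. For u179420, at -2.34 and -2.39 in control, the bound was at least 4.94-fold lower, and a clone-named probe of the same transcript fell by 2.83 (SE 0.26; 1 phorone array not above background). The members u196330, u197836 and u195128 were at least 4.49-fold, 4.13-fold and 3.55-fold lower. The last of these had control values far apart, -3.49 and -2.20, and its bound was 2.27-fold without control replicate 2 and 5.55-fold without control replicate 1.

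In the phorone arrays alone, u203337 read -1.74 and -0.57, against -7.08 and -6.98 in control, and was at least 12.6-fold higher. Its phorone replicates differed by more than a doubling, and its bound was 18.9-fold without phorone replicate 1 and 8.41-fold without phorone replicate 2. That both phorone values lay above both control values is nearly fixed by the choice of these members. The probe of u197629, at -2.62 and -3.03 with phorone, was at least 3.95-fold higher, and that of u191404, at -2.85 and -3.12, at least 3.54-fold higher. The member u191209 read -2.04 and -3.58 with phorone and was at least 3.89-fold higher, a bound that is 2.28-fold without phorone replicate 1 and 6.64-fold without phorone replicate 2. The members u206028 and u200995 were at least 3.1-fold and 3.05-fold higher.

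Grouping the probes by sequence gave 130 groups of at least 2 members that share an exact stretch of 18 bases, with 386 members in all. Of these, 16 groups held at least 5 members (127 members), and all their probes were counted whether or not they passed the filter. Probes of a group can bind the same RNAs, so their changes are not independent. In bulk RNA fewer cells with a transcript and less of it per cell cannot be told apart.

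The major satellite probes fell. Of 12 such members in a group of 7 and a group of 5, all 12 were called lower, by 1.41 to 2.74 (median -2.57). Among all probes tested 17% were called lower. The probe of u201771 read 4.06 and 2.43 in control and 1.31 and 1.23 with phorone (-1.98, SE 0.53, limma adjusted p = 0.0412). That of u192891 read 3.44 and 1.58 in control and -0.18 and -0.22 with phorone (-2.71, SE 0.61, limma adjusted p = 0.025). In all 12 the 2 control arrays differed from each other, control replicate 1 being the higher one by 0.77 to 1.87, while the phorone arrays differed by at most 0.34. Control replicate 2 alone was still above both phorone arrays for each of the 12 probes. Without control replicate 1 the 12 remained called with a median of -1.66, and without control replicate 2 with a median of -3.37. Without phorone replicate 1, 8 were called, and without phorone replicate 2, 6. Under spike-in scaling 11 were called, with a median of -2.13. With no filter on dim probes 0 were called and with noncoding probes alone in the fit 3, at the same median of -2.57.

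**Figure D3:**
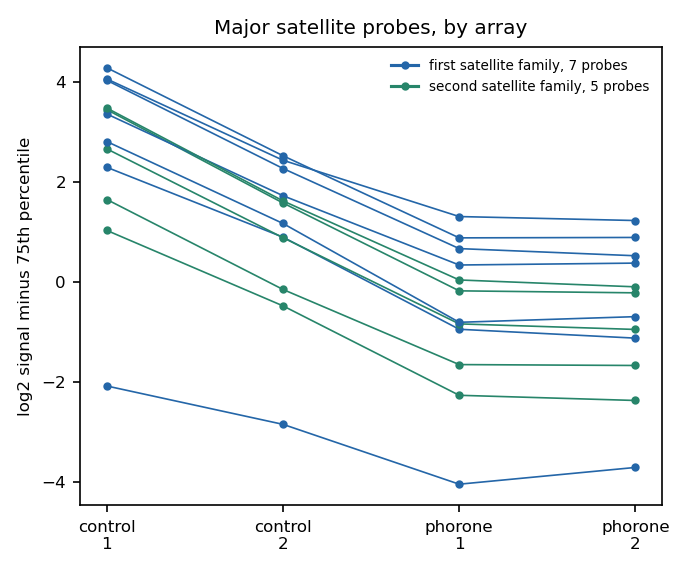
Log2 signal relative to the 75th percentile (y axis) of the 12 major satellite probes on the 4 arrays (x axis), 1 line per probe, coloured by the 2 groups of shared sequence. In each line control replicate 1 is highest, control replicate 2 is lower by 0.77 to 1.87, and the phorone arrays lie lowest and close together.

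Probes with the head of B2 in reverse rose. Of 12 members, all on 4 arrays, 11 were called higher, by 0.59 to 1.29, and the 12 had a median of 0.90. Among all probes tested 20.9% were called higher, which stands beside each B2 count here. The probe of u189215 read 3.61 and 3.02 in control and 4.58 and 4.6 with phorone (1.27, SE 0.23, limma adjusted p = 0.0135). That of u195953 read 2.11 and 1.75 in control and 2.94 and 2.98 with phorone (1.03, SE 0.17, limma adjusted p = 0.0111). The member not called, u193883, stood at 0.47 (SE 0.17). With the replicate number as a block, 7 of the 12 were called. Without control replicate 2 or phorone replicate 2, 5 were called, and without phorone replicate 1, 7, with all 12 above 0 each time. With no filter on dim probes 0 were called and with noncoding probes alone 5, at the same median. A further 10 members in 2 groups carry the tail of B2 in reverse. Of these 9 were not above background in either group, and the other, u182977, was not called (0.53, SE 0.26, limma adjusted p = 0.169). A group of 5 members sharing B2 sequence in the forward orientation lay between 0.29 and 0.47. Of these, 2 were called, u185698 and u188606. Neither was called with any array left out, under spike-in scaling, without a filter on dim probes or with noncoding probes alone. All counts of forward B2 probes are for this group. The bright members u205661 (0.45, SE 0.13, not called) and u185811 (0.46, SE 0.13, called) also read as forward B2 and lie outside it. The differences between the orientations and between head and tail were not tested.

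Reverse B1 probes moved little. Of 15 tested members with B1 sequence in the larger group 0 were called higher and 0 lower (median 0.19); the only called probe joined to it, u203054 (0.65, SE 0.15), holds a TTTG run and no B1 sequence. Of 15 in the next, 0 were higher and 1 lower (median 0.12). A group of 6 probes reads as the end of an IAP long terminal repeat, named from knowledge of the element. Of these, 5 were called higher, beside 20.9% of all probes tested, and the 6 lay between 0.43 and 0.65. The probe of u193681 read 4.52 and 4.38 in control and 5.10 and 5.11 with phorone (0.65, SE 0.13, limma adjusted p = 0.0192). With the replicate block 2 were called, without control replicate 2 or either phorone array 0, and under spike-in scaling, without a filter on dim probes or with noncoding probes alone 0. Under spike-in scaling the 6 lay between 0.87 and 1.09 against a median of 0.53 for all probes. A group of 10 led by u199958, of a sequence not named here, served as a contrast with no called member and changes between -0.19 and 0.16.

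Probes with runs of a 2-base repeat were taken by their letters, with no test between the kinds of run. Members with at least 8 copies of GT in a row were all above background, with changes between -0.09 and 0.18 in 47 probes and 0 called. Of 32 tested members with CA runs, 1 was called higher and 0 lower. The 14 members with CT runs lay between -0.78 and -0.44 and 8 were called lower (57.1%, against 17% of all probes). The 19 with GA runs lay between 0.36 and 0.91 and 2 were called higher (10.5%, against 20.9% of all probes). The probe of u200981, with a CT run, read 4.42 and 4.84 in control and 3.89 and 3.8 with phorone (-0.78, SE 0.19, limma adjusted p = 0.0292). Control replicate 2 was the higher control array for all 14. The CT count was 14 without control replicate 1, 4 with the replicate block and 0 without control replicate 2, without either phorone array, under spike-in scaling, without a filter on dim probes or with noncoding probes alone. The GA count was 8 without control replicate 1 and 12 with normexp, and 0 without a filter on dim probes or with noncoding probes alone. The members u202913 and u187812, both with GT runs, were among the 6 members of highest probe signal, which the rule for naming took in, and stood near 7.5 on all arrays, their groups overlapping. The other members of that set, u205361, u193778, u205661 and u185811, were higher by 0.30 to 0.46, and u185811 alone was called (0.46, SE 0.13, limma adjusted p = 0.0422). They are each listed with 10 accessions.

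**Figure D4:**
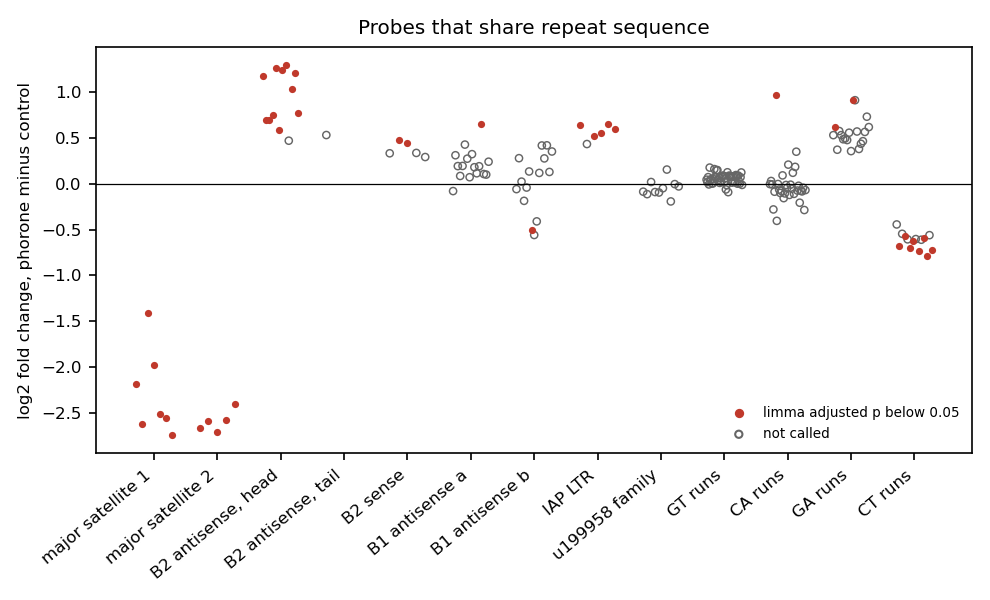
Log2 change, phorone minus control (y axis), of each tested member in 13 groups of probes that share repeat sequence (x axis). Filled points passed an adjusted p of 0.05, and the filled point in the first B1 group is u203054, which holds no B1 sequence. The satellite probes lie between -2.74 and -1.41, the reverse B2 head probes between 0.47 and 1.29, and the GT runs close to 0.

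Some members lie at gene starts. Set against the RefSeq windows from 250 bases before to 50 after a start site, 276 members matched at least 55 of their 60 bases in the windows of at most 2 genes (3.14% of members, 3.45% of clone-named probes and 0.438% of gene probes). Of the 276, 206 lay on the strand opposite to the gene, 56 on the gene's strand and 14 on both, as with back-to-back genes. The opposite strand alone held 74.6% of matching members, 67.8% of matching clone-named noncoding probes and 46.1% of matching gene probes. Gene probes matching the window of their own gene did so in the sense orientation in 6 of 6 cases, which sets the direction of reading. Of the 206 antisense members, 187 lay entirely before the start site. Another RefSeq gene spans 41 of the 81 kept ones, a long noncoding RNA for 25 and a coding gene for 16, and no other gene spans 40.

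Of the 81 antisense members kept and tested, 22 were called higher and 6 lower, beside the 20.9% and 17% of all probes, and 53 were not called (median 0.13). On all 4 arrays 14 were higher and 4 lower of 67 (median 0.02). Without phorone replicate 1 or phorone replicate 2, 13 were called higher and 3 lower, and without control replicate 2, 20 and 3. Among the 81, 9 were above background on the phorone arrays alone and 1 on the control arrays alone.

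Of those seen on the phorone arrays alone, 5 are given here. The member u194481 lies opposite the promoter of Ndufa12, a subunit of respiratory complex I (chr10:94198856-94198915, positions -179 to -120 from the start, with no other RefSeq gene there). It read -7.02 and -7.04 in control and -3.85 and -3.84 with phorone, at least 1.95-fold higher. The gene itself was not called (0.20, SE 0.13, limma adjusted p = 0.289). The member u181447 lies opposite the promoter of Idh3b, a subunit of the mitochondrial isocitrate dehydrogenase (chr2:130284498-130284557, positions -106 to -47 from the start). It read -6.97 and -6.80 in control and -4.39 and -3.49 with phorone, at least 1.83-fold higher, with the gene at 0.42 (SE 0.15, limma adjusted p = 0.084). That bound was 1.34-fold without phorone replicate 2 and 2.50-fold without phorone replicate 1. The member u183234 spans the start of Psma5, a proteasome subunit, and was at least 2.74-fold higher (2.11-fold without phorone replicate 2). Psma5 itself rose by 1.37 (SE 0.13). Opposite Rrp15, a factor of ribosomal RNA maturation, u179684 was at least 1.76-fold higher and the gene rose by 1.28 (SE 0.12). The probe of u179684 lies within A430105J06Rik, a long noncoding RNA gene. Opposite Babam1, a subunit of a BRCA1-associated complex, u191209 was at least 3.89-fold higher (2.28-fold without phorone replicate 1) and the gene stood at 0.06 (SE 0.13).

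On all 4 arrays the antisense member before Sppl2b, an intramembrane protease, went from -3.12 and -3.07 to -1.57 and -1.39 (u194297, 1.61, SE 0.14, limma adjusted p = 0.00226). The probe lies inside Lsm7, a coding gene on the other side of the start, and Sppl2b itself stood at 0.28 (SE 0.15). The member before Tax1bp1, an autophagy receptor, has no other gene at its place (chr6:52713628-52713687). It went from -2.42 and -2.52 to -1.34 and -1.21 (u187800, 1.20, SE 0.14, limma adjusted p = 0.00434), and Tax1bp1 rose by 0.83 (SE 0.13). The member before Cenpk, a kinetochore protein, rose by 1.57 (u198944, SE 0.27), with Cenpk higher by 1.03 (SE 0.14), and the probe lies within Ppwd1. The member before Insig2, which holds back cholesterol synthesis, rose by 0.87 (u178891, SE 0.14), with Insig2 at -0.05 (SE 0.15).

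Some pairs went opposite ways. The member before Exog, a mitochondrial nuclease, fell by 0.57 (u193418, SE 0.14, limma adjusted p = 0.0296), where Exog rose by 0.78 (SE 0.13). The member before Polr3k, a subunit of RNA polymerase III, fell by 0.53 (u182108, SE 0.15, limma adjusted p = 0.0495), where Polr3k rose by 0.54 (SE 0.12). Of 21 antisense members called higher whose gene was tested, the gene was called higher in 8, lower in 0 and neither in 13. Some of the 21 were above background on the phorone arrays alone and passed the filter through the group where they are high. Of 4 called lower, the gene was called higher in 3 and neither in 1. Of 31 not called, the gene was called higher in 8 and lower in 5. These counts stand beside 23.3% higher and 17.0% lower among all gene probes on all 4 arrays. A link between member and gene was not tested. The motif TGACNNNGC, the core of the antioxidant response element bound by NRF2, was searched on both strands and was found in 1 of the 22 windows with a member called higher, in 8 of the 53 with a member not called and in 12.4% of all 32851 windows. A match is a description of letters and not a site.

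**Figure D5:**
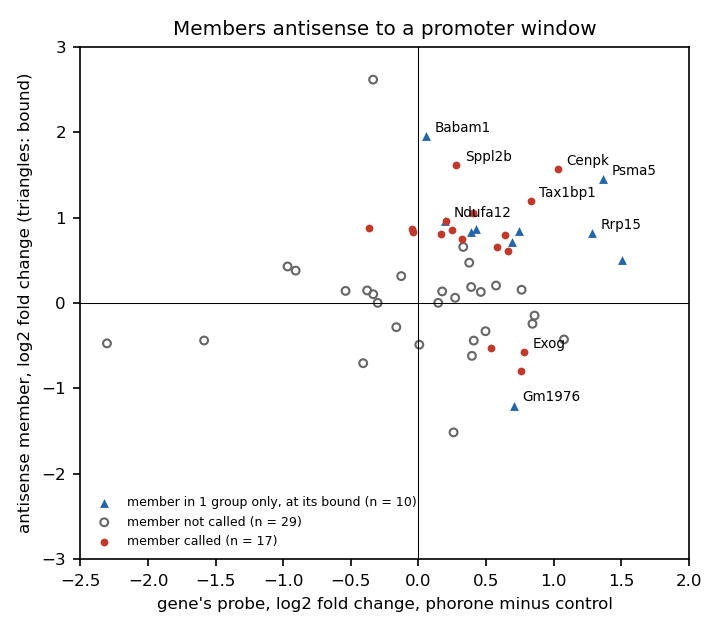
Log2 change of the gene's probe (x axis) against that of the member antisense to its promoter window (y axis), both phorone minus control, for members whose gene was tested. Filled circles are called members, open circles members not called, and triangles members above background in 1 group only, drawn at their bound. The member before Babam1 stands high with its gene near 0, and that before Psma5 stands high with its gene.

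On the gene's own strand, 7 of 35 members were called higher (20%) and 2 lower (5.71%), beside 20.9% and 17% of all probes. The member at the start of Sf3b6, a splicing factor subunit, rose by 0.61 (u196733, SE 0.13) beside 0.63 (SE 0.13) for the gene's probe. The member at the start of Tmem41b, a membrane lipid scramblase, rose by 0.87 (u190035, SE 0.15), while the gene's probe stood at -0.08 (SE 0.16).

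Other probes that list the same accession, with at most 4 listed for a noncoding probe, give a check by a second sequence. With a clone-named probe there were 222 pairs, over 215 members, whose changes correlated across pairs with r = 0.75 (pairs share arrays and are no replicates). Of 78 pairs with a called member, the other probe was called the same way in 53, the opposite way in 0 and neither way in 25. Of all clone-named noncoding probes tested, 13.0% were called higher and 11.1% lower. With a gene probe there were 19 pairs. Of 9 with a called member the gene probe was called the same way in 7 and the opposite way in 0. The member u187264 rose by 1.32 (SE 0.26) beside 0.88 (SE 0.13) on the probe of C1galt1, an enzyme of O-glycan synthesis. The member u201062 rose by 0.97 (SE 0.13) beside 0.74 (SE 0.14) for Ankrd54, and u194754 by 0.79 (SE 0.13) beside 1.27 (SE 0.20) for Mdm1, a centriole protein. The member u202567 rose by 1.07 (SE 0.14), while the probe for Snx9, a sorting nexin, stood at -0.43 (SE 0.15) and was not called. Which of these probes lie in an intron, an exon or a UTR was not analysed here.

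Of the 17 members named for a known noncoding RNA, 7 were kept. The snoRNA u4946 is described above. The antisense RNA of Hoxa11, from the Hoxa cluster of patterning genes, read -3.57 and -3.66 in control and -6.89 and -6.42 with phorone and was at least 2.08-fold lower. SRA, an RNA that acts with steroid receptors, read 2.63 and 2.72 in control and 2.29 and 2.28 with phorone, without a call (-0.39, SE 0.13, limma adjusted p = 0.0686). The antisense RNA of the imprinted Gnas locus (u2116) stood at -0.45 (SE 0.14, limma adjusted p = 0.0597). The probes for H19 and both for BC1, a dendritic RNA of neurons, were designed on deer mouse species and not on the house mouse, so their binding here is uncertain. They stood at 0.28, -0.28 and -0.15, none called, and both BC1 values turned positive under spike-in scaling. The probes for His-1, KvLQT1-AS, bic, BORG, Tsix, a second Gnas antisense RNA, 3 small RNAs and a small nuclear RNA were not above background in either group.

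Known noncoding RNA genes on the array's gene probes went both ways, in a list written with earlier results of these data known. Of 34 listed, 20 were tested, 5 were called higher and 5 lower (median 0.04), beside 20.9% and 17% of all probes tested. Neat1, the scaffold of nuclear paraspeckles, went from 3.49 and 3.88 to 5.70 and 5.79 (2.06, SE 0.18, limma adjusted p = 0.00241). Dleu2, the host of miR-15a and miR-16, rose by 1.15 (SE 0.13), and Malat1, an RNA of nuclear speckles, by 0.88 (SE 0.15). Snhg1 and Oip5os1 were higher by 0.52 and 0.49. Airn, the imprinted antisense RNA of Igf2r, fell by 1.60 (SE 0.18), Dnm3os, the host of miR-199a and miR-214, by 1.40 (SE 0.23), Snhg8 by 1.37 (SE 0.15) and Tug1 by 0.94 (SE 0.13). The gene probe of Tsix fell by 1.17 (SE 0.30) and was not above background on all arrays. Xist, which silences the X chromosome, read 3.74 and 3.51 in control and 1.62 and 3.13 with phorone and was not called. Spike-in scaling left 3 called higher and 0 called lower, and leaving out phorone replicate 1 left 2 and 4.

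In a list of genes for the machinery that makes small RNAs and degrades RNA, written the same way, most members were higher. Of all probes on all 4 arrays, 20.7% were called higher and 15.2% lower. Of the 34 listed genes, 20 were called higher and 1 lower (median 0.57, against 0.09 for all probes). All 9 genes of the exosome core listed, Exosc1 to Exosc9, were among them, from 0.49 for Exosc4 to 1.34 for Exosc6 (SE 0.13, limma adjusted p = 0.00291). Dis3, its nuclease, rose by 0.91 (SE 0.13), while the catalytic subunit Exosc10 (0.48) and the nuclear cofactors Mtrex (0.36), Zcchc8 (0.42) and Rbm7 (0.30) were not called. Of the snoRNA particle, the proteins Nop56, Nop58, Fbl, Dkc1 and Nhp2 rose by 1.05, 0.71, 1.02, 0.76 and 0.88. Drosha (0.54) and Dicer1 (0.53), which cut microRNA precursors, were higher, as were the Argonautes Ago2 (0.75) and Ago3 (1.10), while Ago1 fell by 0.76 (SE 0.17). Ago4 (-0.43), Dgcr8 (-0.24), Xpo5 (0.41) and Tarbp2 (0.49) were not called. Neither were Upf1 (0.08), Upf2 (0.60), Upf3b (0.43), Xrn1 (0.09) and Pabpn1 (0.18), while Xrn2 (0.67) was called higher. Spike-in scaling left 10 called higher and 0 called lower. Without phorone replicate 1 there were 9 and 0, without phorone replicate 2 there were 6 and 0, and without control replicate 2, 15 and 0.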

How the data were processed

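Total RNA of 4 samples was hybridised in 1 colour (Cy3). The scans were read with Agilent Feature Extraction 10.7.3.1, per the file headers, whose processed signal, a background-subtracted intensity, is what the authors deposited. A table of log2 values deposited by the authors served as an alternative. Here the processed signal was put on a log2 scale and centred on the 75th percentile of non-control probes in that array, without outlier spots. A probe was kept when well above background on both arrays of a group. The test was limma's (version 3.58.1, R 4.3.3; two-sided, 2 residual and 2.91 prior degrees of freedom, adjusted over 31905 probes), a procedure tested on simulated data. Depth is limited by 2 arrays a group. Probes were matched to RefSeq promoter windows of GRCm38.p6 with blastn 2.17.0, ungapped. Gene probes were named by RefSeq accession (28136 of 40628), the brightest kept probe standing for its gene. Coordinates given by the files, on another build, were left out.

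Members and lists were chosen with earlier results of these data known. Named members were the 12 largest called changes each way on all 4 arrays, up to 6 each way above background in 1 group only, the 6 of highest signal, those named for a known noncoding RNA and those nearest the threshold. Members named for their sequence group, their promoter or a shared accession, and u183624, were chosen after their values were seen. The rule also asked for transcripts with several probes; each name had 1.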

Additional observations from a re-analysis of the deposited data

How the results depend on the processing

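Each alternative was chosen with earlier results known, and the cause of each change below was not tested except where the setting's construction shows it. Of 630 values for 42 named members under 15 alternatives, 574 kept their direction and side of the threshold, 30 lost the call, 17 gained it and 9 changed sign. The 9 were u202913 (-0.071 with quantile normalisation, and -0.0020 to 0.15 as 1 array was left out, below 0 without control replicate 1), u187812 (-0.0066 with normexp, -0.040 with quantile normalisation, and -0.061 to 0.24 as 1 array was left out, below 0 without control replicate 1), SRA (0.045 with spike-in scaling), u4397 (0.15 with spike-in scaling) and u4398 (0.28 with spike-in scaling, and -0.37 to 0.070 as 1 array was left out, above 0 without phorone replicate 1). None of these was called.

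With no filter on dim probes, which tests more probes, 193 members were higher and 159 lower. The groups then gave 0 satellite, 0 reverse B2 head, 0 forward B2, 0 IAP, 0 GA and 0 CT probes, 14 antisense promoter members higher and 1 lower, 2 noncoding RNA genes higher and 3 lower, and 7 machinery genes higher and 0 lower. With noncoding probes alone in the fit, 206 members were higher and 170 lower, with 3 satellite, 5 reverse B2 head, 0 forward B2, 0 IAP, 0 GA and 0 CT probes and 11 antisense promoter members higher and 3 lower; the gene lists have no value there.

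With spike-in scaling 384 members were higher and 91 lower. It gave 0 forward B2, 0 IAP and 0 CT probes, 1 antisense promoter member lower, 3 noncoding RNA genes higher and 0 lower, 10 machinery genes higher and 0 lower, and 12 control-only and 71 phorone-only members past a 2-fold bound. With normexp 12 GA and 13 CT probes were called. With quantile, median or detected-probe percentile scaling 0 forward B2 and 1 GA probe were called, and with the last 3 noncoding RNA genes higher. With outlier spots kept 1 forward B2 probe was called, and with probes above background on all 4 arrays alone 7 GA probes.

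Same-numbered arrays shared only a number (r of their deviations -0.03). With the replicate number as a block 380 members were higher and 305 lower, with 7 reverse B2 head, 0 forward B2, 2 IAP, 1 GA and 4 CT probes and 3 noncoding RNA genes higher.

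Leaving out 1 array at a time gave 207 to 397 members higher and 227 to 332 lower, 6 to 12 satellite, 5 to 9 reverse B2 head, 0 forward B2, 0 to 4 IAP, 0 to 8 GA and 0 to 14 CT probes. It gave 13 to 20 antisense promoter members higher and 3 to 7 lower, 2 to 3 noncoding RNA genes higher and 4 to 6 lower, 6 to 15 machinery genes higher and 0 to 1 lower, and 19 to 25 control-only and 23 to 38 phorone-only members past the bound. The group left with 1 array is assumed to vary like the other. Bounds were recomputed under scaling and left-out arrays only. Signal over background limits the members at the dim end, where 6.12% of those below a level of -4 were called.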
